A study of Mus musculus with 6 samples.

Results

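The subject is 10 nuclear genes for mitochondrial protein quality control, chosen by name with earlier results of these data known. They are the chaperone genes Hspd1, Hspe1 and Hspa9, the protease genes Lonp1, Clpp, Clpx, Afg3l2, Yme1l1 and Spg7, and the transcription factor gene Atf5. All 10 were found among the 55471 gene IDs of the deposited table, each in a single row. Their transcripts were measured by total RNA sequencing in haematopoietic stem cells sorted from mice (Lin- Kit+ Sca1+ CD48- CD150+). All 6 libraries carry the genotype label ETV6-RUNX1, the fusion of a leukaemia translocation. The 3 uninduced libraries came from mice without doxycycline, and the 3 induced libraries from mice given doxycycline in food for 2 weeks. The promoter driving the fusion, the age and strain of the mice, and whether a library pooled mice are not given in the sources used here. No library with doxycycline but without the fusion was analysed here, so effects of the drug and of the fusion cannot be told apart.

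Most mitochondrial proteins are made in the cytosol and imported unfolded. Hspa9 (mortalin) pulls them through the inner membrane, and the chaperonin Hspd1 (HSP60) with its lid Hspe1 (HSP10) folds them in the matrix. Lonp1 and the Clpx-Clpp pair degrade matrix proteins. Afg3l2 and Spg7 form an inner-membrane protease that faces the matrix, and Yme1l1 forms one that faces the intermembrane space. Atf5 is a stress-regulated factor linked to the induction of several of these genes. Doxycycline inhibits the mitochondrial ribosome, and a mismatch between mitochondrially and nuclear-encoded proteins is a known trigger of this stress response.

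In the induced cells the folding chaperones were lower. No gene of the 10 was called higher, beside 1.29% of all tested genes. The median log2 change of all tested genes was -0.35. Hspd1 fell to 0.373 of its uninduced mean TPM, Hspe1 to 0.390, Hspa9 to 0.531 and Atf5 to 0.194. The proteases Lonp1, Clpp, Clpx, Afg3l2, Yme1l1 and Spg7 did not pass the test, at 0.557 to 0.864 of the uninduced level. Of the calls, those of Hspd1 and Hspe1 held under each of the 17 alternatives computed, and those of Hspa9 and Atf5 did not.

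Hspd1 (ENSMUSG00000025980, chromosome 1, 55077835 to 55088243, minus strand, GRCm38) and Hspe1 (ENSMUSG00000073676, chromosome 1, 55088132 to 55091307, plus strand) lie head to head, and their annotated gene bodies overlap by 112 bases at the 5′ ends. Because these neighbours moved together, their start region was searched, in the RefSeq promoter table for GRCm38.p6, for 6 motifs on both strands. A run of 18 bases on the Hspe1 strand, starting 89 bases upstream of the RefSeq Hspe1 start site, holds the heat shock element core GAANNTTC once and its inverse TTCNNGAA 2 times, overlapping each other. The run lies within the annotated Hspd1 gene body. On the Hspd1 strand it starts 144 bases upstream of a RefSeq Hspd1 start site. An E-box, CACGTG, starts 80 bases upstream of a different RefSeq Hspd1 start site and another 36 bases upstream of that of Lonp1. These stretches are shown with the matches in capitals, to give the letters that the pair shares and the Hspd1 and Lonp1 starts have in common.
Hspe1 and Hspd1, heat shock element run, chr1:55088053-55088082, plus strand: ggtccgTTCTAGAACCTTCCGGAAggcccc
Hspd1, E-box, chr1:55088306-55088335, minus strand: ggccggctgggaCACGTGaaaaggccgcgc
Lonp1, E-box, chr17:56626922-56626951, minus strand: cgcgagcgtcatCACGTGcgcaaacggggg

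Of all 32851 promoter windows in that table, each 250 bases before to 50 after a start site, 7.86% hold GAANNTTC, 8.52% hold TTCNNGAA and 7.15% hold CACGTG. The table holds 10 windows for 8 of the 10 genes, Hspd1 and Atf5 having more than 1. The core GAANNTTC occurs in 2 of the 10 windows, of Hspd1 and Hspe1, through the same run, and TTCNNGAA also in 1 window each of Atf5 and Clpp. The C/EBP-ATF element core TGATGNAA and the cAMP response element TGACGTCA matched in none of the 10 windows, against 3.97% and 1.79% of all windows. A CCAAT box (CCAAT) occurs in 4 of the 10 windows, near the 37.4% of all windows. A match describes letters in a window and is not evidence of binding.

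The values are TPM: each gives the part of a library's transcripts that a gene accounts for, corrected for gene length. They were tested on log2(TPM + 1) with limma across the 13470 genes whose mean reached 1 TPM, a scale that understates the change of low genes, and p-values were adjusted over all of them. All 10 genes passed this filter, Atf5 only through its uninduced libraries. The share of TPM in nuclear protein-coding genes was 29.8% ± 3.13 in uninduced and 21.9% ± 1.35 in induced libraries (SD, n = 3 each), and the median log2 change of all tested genes was -0.35. Scaling by the median of ratios, which brings that median to 0.0032, is given beside the deposited scale. TPM keeps no sequencing depth, so the depth of each library is unknown and no detection floor can be given. The labels do not say which libraries came from separate mice, and p-values measure the spread between these libraries.

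Of the 10 genes, 4 passed an adjusted p under 0.05, all lower in induced cells, while 10.2% of all tested genes were called lower and 1.29% higher. On the median-of-ratios scale 2 of the 10 passed, both lower, beside 3.1% of all tested genes lower and 2.88% higher. The groups did not overlap, with induced libraries lower, for 7 of the 10 genes, against 28.2% of all tested genes. On the median-of-ratios scale that held for 5 of the 10, against 14.3%. The median log2 change of the 10 genes was -0.72 on the deposited scale and -0.33 after median-of-ratios scaling. The count of 4 became 2 when uninduced replicate 1, uninduced replicate 2 or induced replicate 2 was left out.

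**Figure D1:**
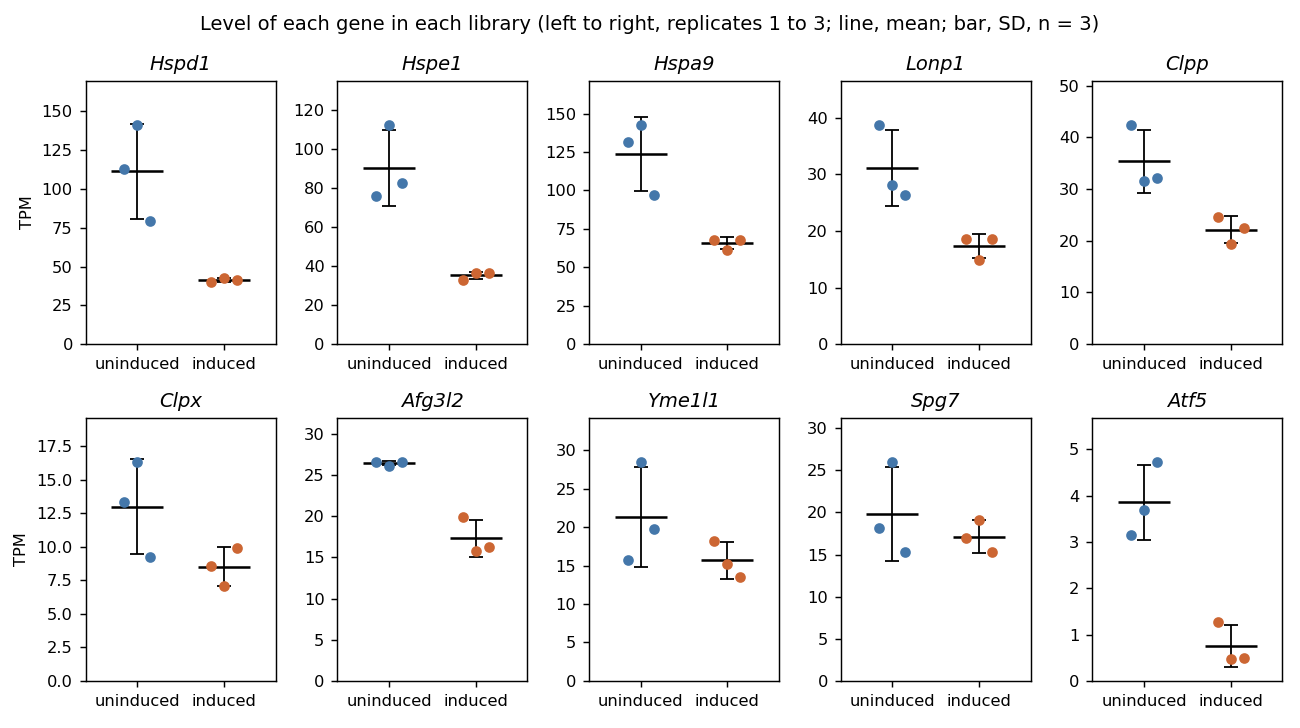
TPM of each of the 10 genes in each library, with a linear axis from 0 per gene. Points are libraries (replicates 1 to 3 from left to right), lines are group means and bars are SD (n = 3). The 3 induced libraries lie below the 3 uninduced libraries for 7 genes, and the groups overlap for Clpx, Yme1l1 and Spg7.

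Hspd1, the chaperonin subunit that forms the folding chamber, was at 113, 141 and 79.5 TPM in the uninduced libraries and after induction at 40.2, 42.8 and 41.4 TPM. The induced values lay close together, and the lowest uninduced library was well above them. The means were 111 ± 30.8 and 41.5 ± 1.30 TPM (SD, n = 3 each), which is a difference of -1.36 log2 units (standard error 0.22, with an adjusted p of 0.00537 in limma). On the median-of-ratios scale the difference was -0.96, with an adjusted p of 0.0165 in limma.

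The co-chaperonin Hspe1, which caps that chamber, was at 76.0, 112.5 and 82.9 TPM without induction and at 33.0, 36.5 and 36.3 TPM with it. Uninduced replicate 2 was the highest library for both Hspe1 and Hspd1, and the groups did not overlap for either gene. Hspe1 fell by 1.32 on the log2 scale (standard error 0.20, with an adjusted p of 0.00433 in limma), and by 0.91 after median-of-ratios scaling (limma adjusted p 0.0183). Its ratio to Hspd1, which does not depend on the scaling of a library, was 0.838 ± 0.188 in uninduced and 0.850 ± 0.0288 in induced cells (SD, n = 3 each). The groups overlapped, and the exact two-sided permutation p for the log2 ratio, taken after adding 1 TPM to each gene, was 0.8.

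Hspd1, Hspe1 and Hspa9 have 12 named pseudogenes in the table, with which they could share reads, and 11 of these stayed under 1 TPM in every library. The exception was Hspd1-ps3, a processed pseudogene, which was listed at 36.6, 31.1 and 34.5 TPM in uninduced and at 9.71, 8.21 and 8.32 TPM in induced libraries. That row also fell, with a log2 change of -1.85 (limma adjusted p 0.00181) and -1.46 after median-of-ratios scaling (limma adjusted p 0.00657). Adding the pseudogenes of Hspd1 to its own row gave a log2 change of -1.49 (limma adjusted p 0.00217). How the authors assigned reads that match both a gene and its pseudogene is not given in the sources used here.

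Hspa9 (ENSMUSG00000024359, chromosome 18, 34937414 to 34954357, minus strand), the import motor's chaperone, had the highest mean TPM of the 10 gene rows in both groups, and was at 131, 143 and 96.8 TPM in uninduced libraries. In the induced libraries it was at 68.0, 61.1 and 67.8 TPM. The groups did not overlap on either scale. The deposited values gave a log2 change of -0.89 (standard error 0.19, with an adjusted p of 0.0163 in limma). The call did not hold on the median-of-ratios scale (-0.48, limma adjusted p 0.0766). It was also lost without uninduced replicate 1 (adjusted p 0.0542 in limma), uninduced replicate 2 (0.0530) or induced replicate 2 (0.0685), and with quantile normalization (0.0695), rescaling to nuclear protein-coding genes (0.0535) or no variance trend (0.0779).

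**Figure D2:**
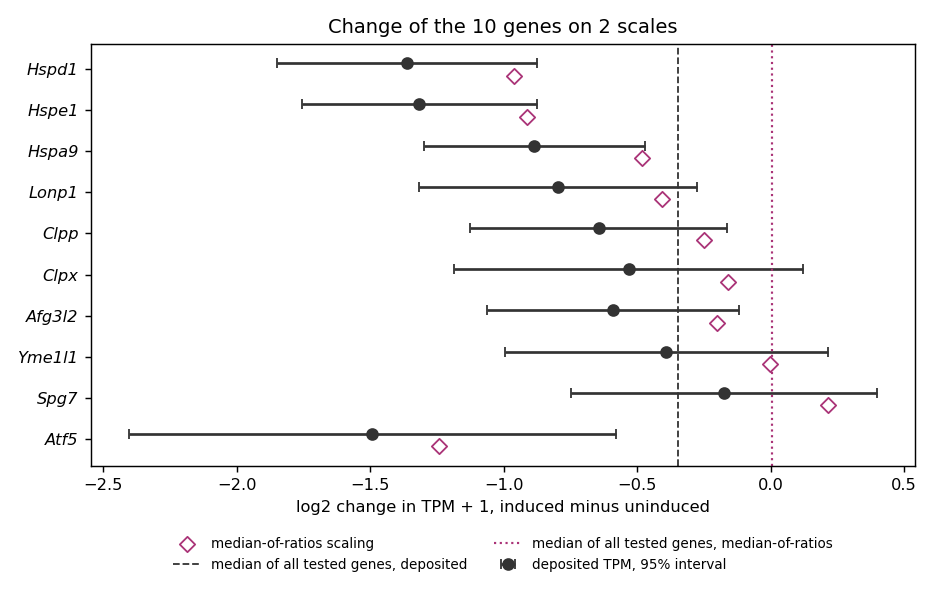
Log2 change of TPM + 1, induced minus uninduced, for each of the 10 genes. Black points with 95% intervals are from the deposited scale and open diamonds from median-of-ratios scaling, and vertical lines mark the median of all tested genes on each scale (-0.35 and 0.0032). Hspd1, Hspe1 and Atf5 lie farthest to the left, and Spg7 lies to the right of the median on each scale.

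Among the soluble matrix proteases, Lonp1 (ENSMUSG00000041168, chromosome 17, 56614297 to 56626887, minus strand) was at 38.7, 28.1 and 26.4 TPM in uninduced and at 18.6, 14.8 and 18.5 TPM in induced libraries. Its groups did not overlap, and it lay at a log2 change of -0.80 (standard error 0.23), just outside the threshold at a limma adjusted p of 0.0540. It passed with a filter of at least 5 TPM (adjusted p 0.0404 in limma) and with array weights (0.0468), and stood at -0.41 after median-of-ratios scaling (0.294).

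Clpp, the peptidase ring of the ClpXP complex (ENSMUSG00000002660, chromosome 17, 56990305 to 56996188, plus strand), was at 42.4, 31.5 and 32.0 TPM in uninduced and at 24.5, 19.4 and 22.4 TPM in induced libraries. Its groups did not overlap on the deposited scale and did after median-of-ratios scaling. Clpp had a log2 change of -0.64 (standard error 0.22, with an adjusted p of 0.0831 in limma), or -0.25 on the median-of-ratios scale. Clpx, the unfoldase that feeds that ring (ENSMUSG00000015357, chromosome 9, 65294260 to 65330658, plus strand), was at 13.3, 16.4 and 9.27 TPM without and 8.55, 7.09 and 9.95 TPM with induction. The Clpx groups overlapped, and its log2 change was -0.53 (95% interval -1.19 to 0.12, limma adjusted p 0.272). After median-of-ratios scaling it was -0.16 (limma adjusted p 0.768). The ratio of Clpx to Clpp was 0.374 ± 0.126 and 0.386 ± 0.0507 (SD, n = 3 each), with overlapping groups and an exact two-sided permutation p of 0.7.

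Of the membrane-bound AAA proteases, Afg3l2 (ENSMUSG00000024527, chromosome 18, 67404764 to 67449172, minus strand) was the steadiest gene of the 10 in uninduced cells, at 26.7, 26.2 and 26.6 TPM. In induced cells it was at 19.9, 15.8 and 16.2 TPM, below all 3 uninduced values. The log2 change was -0.59 (standard error 0.21, with an adjusted p of 0.101 in limma), and -0.20 with overlapping groups on the median-of-ratios scale. Its partner subunit Spg7, or paraplegin (ENSMUSG00000000738, chromosome 8, 123062942 to 123097760, plus strand), was at 18.2, 26.0 and 15.3 TPM in uninduced and at 16.9, 19.2 and 15.3 TPM in induced libraries. The groups overlapped. Spg7 had a log2 change of -0.17 (95% interval -0.75 to 0.40, limma adjusted p 0.700), which turned to 0.21 after median-of-ratios scaling and to 0.03 without uninduced replicate 2.

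Yme1l1, the protease facing the intermembrane space (ENSMUSG00000026775, chromosome 2, 23156369 to 23199260, plus strand), was at 15.7, 28.5 and 19.8 TPM in uninduced and at 18.2, 15.2 and 13.6 TPM in induced libraries. Its groups overlapped, with a log2 change of -0.39 (95% interval -0.99 to 0.21, limma adjusted p 0.384) that was -0.0035 after median-of-ratios scaling. The ratio of Spg7 to Afg3l2 was 0.750 ± 0.219 in uninduced and 1.00 ± 0.188 in induced cells (SD, n = 3 each, exact two-sided permutation p 0.3). That of Yme1l1 to Afg3l2 was 0.807 ± 0.257 and 0.903 ± 0.0625 (SD, n = 3 each, exact two-sided permutation p 0.6). In all 4 ratios tested the groups overlapped, and each adjusted p was 0.8. With 3 libraries against 3 an exact permutation p cannot go below 0.1, so none of these ratios could have passed.

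**Figure D3:**
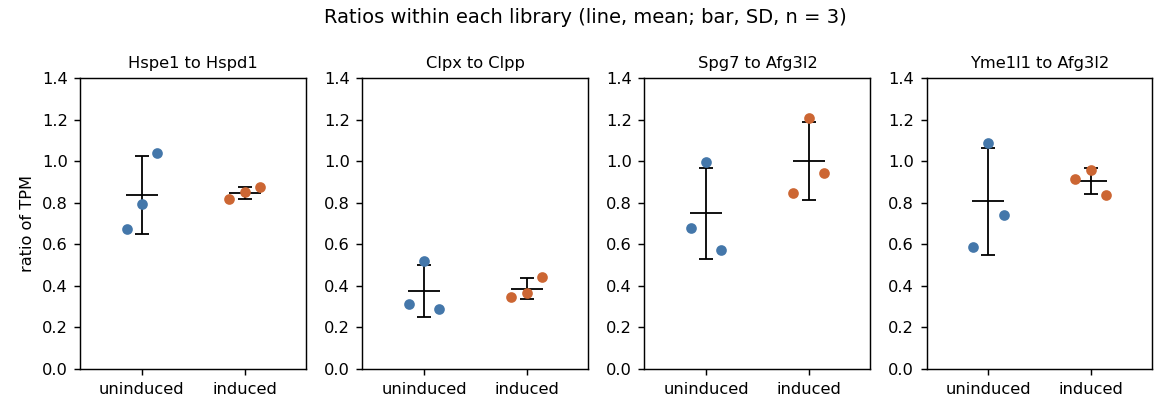
Ratio of TPM between partner genes within each library, on a common linear axis from 0. Points are libraries, lines are means and bars are SD (n = 3). The uninduced and induced points overlap in all 4 panels, with the mean of Hspe1 to Hspd1 at 0.838 and 0.850.

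Atf5 (ENSMUSG00000038539, chromosome 7, 44812256 to 44816658, minus strand), the only transcription factor of the 10 and the least abundant, was at 3.15, 3.68 and 4.73 TPM in uninduced libraries. In induced libraries it was at 1.27, 0.474 and 0.498 TPM. Their mean of 0.746 TPM is under the 1 TPM filter, which Atf5 passed only through the uninduced libraries. The groups did not overlap on either scale. Its log2 change was -1.49 (standard error 0.41, with an adjusted p of 0.0441 in limma), and -1.24 after median-of-ratios scaling (limma adjusted p 0.110). With 0.1 or 5 TPM added in place of 1, it was -2.33 or -0.62 (limma adjusted p 0.0496 and 0.0456). The call was lost when any 1 of the 6 libraries was left out, with limma adjusted p of 0.0689 to 0.133, and with no expression filter (0.0904), quantile normalization (0.116) or rescaling to nuclear protein-coding genes (0.0760). Atf5 overlaps Nup62 on the opposite strand by 571 bases. Nup62, a nuclear pore gene, was itself at 37.2 ± 7.13 and 12.6 ± 2.93 TPM (SD, n = 3 each, adjusted p in limma 0.00671), and whether reads were assigned by strand is not given in the sources used here.

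Ordered by level, uninduced cells had Hspa9, Hspd1 and Hspe1 at the top, with ranges that overlapped between neighbours, and then a gap to Clpp. With its pseudogenes added, Hspd1 stood above Hspa9 in uninduced cells, at a mean of 145 ± 29.4 against 124 ± 23.9 TPM (SD, n = 3 each). From Clpp through Lonp1, Afg3l2, Yme1l1 and Spg7 to Clpx each gene overlapped the next, and Atf5 lay apart below them. In induced cells Hspa9, Hspd1, Hspe1 and Clpp did not overlap from one to the next. Clpp overlapped Afg3l2, which lay together with Lonp1, Spg7 and Yme1l1 at mean levels of 15.7 to 17.3 TPM, and Clpx and Atf5 lay apart below. Hspd1, Hspe1 and Hspa9 together made up 68.0% ± 2.79 (SD, n = 3) of the summed TPM of the 10 genes in uninduced and 59.1% ± 2.11 (SD, n = 3) in induced cells. Within the uninduced group, replicate 2 was the highest library for 6 of the 10 genes and replicate 3 the lowest for 5. Within the induced group, replicate 1 was the highest for 6 and replicate 2 the lowest for 6.

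The other genes of mitochondrial protein quality control were read from lists written by hand. Of 12 chaperone partners, such as the mortalin cofactors Dnaja3 and Grpel1, 1 was called lower and 0 higher. That count is near the 10.2% of all tested genes called lower. The gene called was Trap1, the mitochondrial HSP90, at 46.8, 50.7 and 64.7 TPM in uninduced libraries. In induced libraries it was at 32.0, 27.5 and 26.3 TPM (log2 change -0.89, limma adjusted p 0.0226). Of 20 further proteases and regulators, 2, Phb and Pmpca, were called lower and 0 higher by limma, near the 10.2% of all tested genes called lower. Phb, a prohibitin that scaffolds the AAA proteases, had a log2 change of -1.18 (limma adjusted p 0.0341). Pmpca, a subunit of the mitochondrial processing peptidase, had one of -1.08 (limma adjusted p 0.0452). Neither list had a call after median-of-ratios scaling, where 3.1% of all tested genes were called lower and 2.88% higher. The median log2 changes of the 2 lists were -0.53 and -0.63, beside -0.35 for all tested genes. Oma1, the inner-membrane stress protease, had levels of 7.96 ± 2.04 and 7.84 ± 1.12 TPM (SD, n = 3 each). Its log2 change was -0.0030 (limma adjusted p 0.996), and 0.36 after median-of-ratios scaling (limma adjusted p 0.476).

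Upstream of Atf5 stands the integrated stress response, in which Dele1 and the kinase Eif2ak1 (HRI) relay mitochondrial stress to Atf4. Atf4 fell from 109, 103 and 91.0 TPM to 75.8, 58.6 and 60.2 TPM, a log2 change of -0.64 (limma adjusted p 0.0443). On the median-of-ratios scale Atf4 did not pass (-0.23, adjusted p 0.422 in limma). Eif2ak1 was at 16.1 ± 2.12 and 16.5 ± 1.57 TPM (SD, n = 3 each, adjusted p in limma 0.931), and Dele1 at 18.8, 26.6 and 8.53 TPM and 6.82, 6.74 and 16.2 TPM (limma adjusted p 0.290), with overlapping groups for both. Ddit3 (ENSMUSG00000025408), which encodes the stress factor CHOP, was at 13.7, 11.1 and 23.6 TPM in uninduced libraries. In induced libraries Ddit3 was at 22.1, 16.8 and 22.5 TPM, with overlapping groups. Its log2 change was 0.38 (limma adjusted p 0.441), and 0.76 after median-of-ratios scaling (limma adjusted p 0.205).

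Of the 26 stress response genes 22 were tested, of which 6 were lower past the threshold and 0 higher. On the median-of-ratios scale these counts were 2 and 0. The shares of all tested genes called lower were 10.2% and 3.1% on the 2 scales. The median log2 change of the list was -0.56, beside -0.35 for all tested genes. The call with the lowest adjusted p was Phgdh, the first enzyme of serine synthesis. It was at 49.1, 50.8 and 47.9 TPM in uninduced and 11.4, 4.63 and 9.55 TPM in induced libraries (log2 change -2.48, limma adjusted p 0.00185). Shmt2, the mitochondrial serine hydroxymethyltransferase, fell by 1.52 on the log2 scale, with levels of 54.9 ± 9.06 and 18.7 ± 4.56 TPM (SD, n = 3 each, adjusted p in limma 0.00528). Psat1 and Aldh18a1, of serine and proline synthesis, had log2 changes of -1.85 and -1.25 (limma adjusted p 0.0197 and 0.0296), and neither passed on the median-of-ratios scale (0.0705 and 0.1003).

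The clients of these chaperones include the proteins that mitochondria encode themselves. Of the 13 mitochondrially encoded mRNAs, 6 were called lower (3 on the median-of-ratios scale) and 0 higher, beside 10.2% (3.1%) of all tested genes called lower. Their median log2 change was -0.66, beside -0.35 for all tested genes. The cytochrome oxidase subunit mRNA mt-Co1 was at 3192, 3165 and 2615 TPM in uninduced and 1603, 1512 and 1754 TPM in induced libraries (log2 change -0.88, limma adjusted p 0.00431). It also passed after median-of-ratios scaling (-0.47, limma adjusted p 0.0111), as did mt-Nd5 and mt-Nd1. RNA levels do not show whether those mRNAs were translated.

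Of the 16 mitochondrial translation and transcription factors, limma called 0, with 6 lower and 0 higher at an unadjusted p under 0.05. Of all 13470 tested genes 3762 reached that unadjusted p in either direction. On the median-of-ratios scale 0 of the 16 did, beside 2932 of all tested genes, again in either direction. Their median log2 change was -0.64, beside -0.35 for all tested genes. Of the 14 import and mass genes 5 were called lower (1 on the median-of-ratios scale) and 0 higher, with a median of -0.72. Of all tested genes 10.2% (3.1%) were called lower, so the count on the median-of-ratios scale is near the background. The gene that passed on both scales was Slc25a5, the main adenine nucleotide carrier, at 154 ± 5.81 and 76.2 ± 9.92 TPM (SD, n = 3 each, adjusted p in limma 0.00537). Citrate synthase, Cs, had a log2 change of -1.09 (limma adjusted p 0.0160), and -0.70 with an adjusted p of 0.0853 in limma after median-of-ratios scaling.

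Cytosolic and endoplasmic reticulum relatives of the chaperones were also lower. Of 12 such genes 10 were tested, of which 9 were called lower (6 on the median-of-ratios scale) and 0 higher, beside 10.2% (3.1%) of all tested genes called lower. They include all 8 subunits of the cytosolic chaperonin, which is related to Hspd1. Of these, Cct6a fell by 1.32 on the log2 scale, with levels of 162 ± 41.4 and 63.4 ± 5.58 TPM (SD, n = 3 each, adjusted p in limma 0.00450). Hspa5 (BiP), the endoplasmic reticulum relative of Hspa9, fell by 1.18, with levels of 204 ± 35.4 and 88.4 ± 3.97 TPM (SD, n = 3 each, adjusted p in limma 0.004). The median log2 change of the 10 was -1.02.

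**Figure D4:**
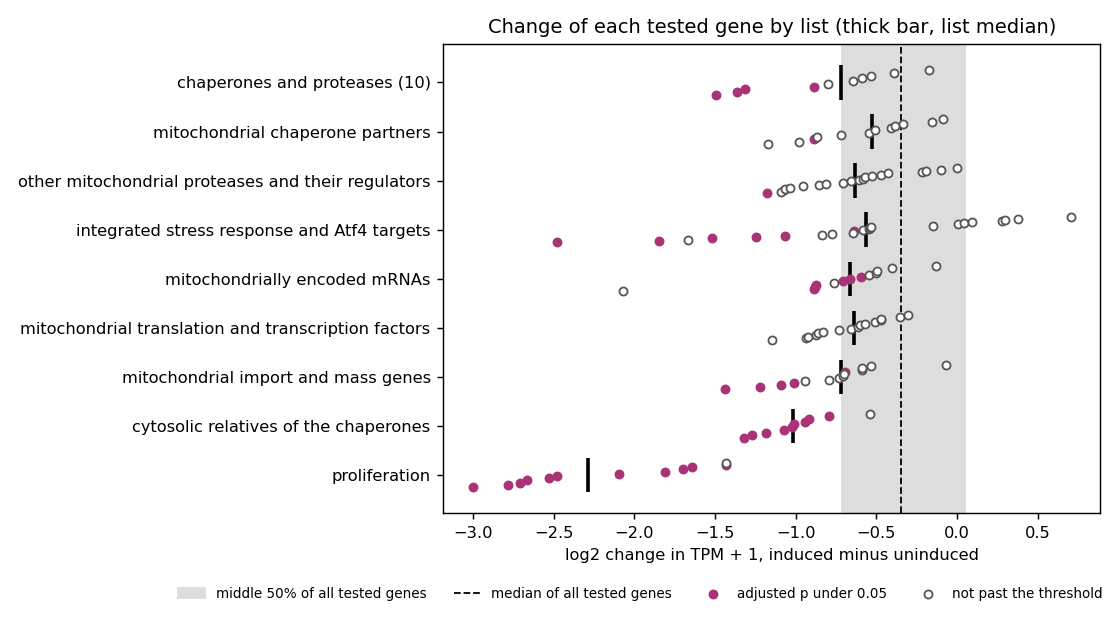
Log2 change of TPM + 1, induced minus uninduced, for each tested gene of the 10 chaperone and protease genes and of 8 other lists. Filled points passed an adjusted p under 0.05, open points did not, thick bars are list medians, the dashed line is the median of all tested genes and the grey band their middle 50%. The median lies at -0.72 for the 10 genes, -1.02 for the cytosolic relatives and -2.29 for proliferation genes.

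Proliferation genes and erythroid markers moved with the induction too. The counts of calls that follow stand beside 10.2% of all tested genes called lower and 1.29% higher (3.1% and 2.88% on the median-of-ratios scale). Of 12 proliferation genes 11 were called lower, with summed levels of 500.5 to 584 TPM in uninduced and 112 to 150.1 TPM in induced libraries. None of the 10 stem cell markers was at 0 in all libraries, and they summed to 527 to 678 and 585 to 645 TPM. Of these, 3 were called higher and 2 lower (4 and 1 on the median-of-ratios scale), with a median log2 change of 0.35. The 10 erythroid markers summed to 56.9 to 62.7 TPM in uninduced and 416 to 479 TPM in induced libraries, with 7 of the 9 tested called higher. The 8 myeloid markers summed to 236 to 284 and 233 to 284 TPM, with 1 of the 6 tested called higher and 0 lower (2 and 0 on the median-of-ratios scale). The 5 megakaryocyte markers summed to 81.7 to 114 and 105 to 114 TPM, with 2 of the 4 tested called higher and 1 lower (2 and 0 on the median-of-ratios scale). Of the B cell markers reported here 3 of 5, among them Pax5, and of the T cell markers 3 of 5, among them Cd3e, were listed at 0 in all libraries. The 5 B cell markers summed to 4.35 to 9.86 TPM in uninduced and 3.11 to 3.85 TPM in induced libraries, and the 5 T cell markers to 2.38 to 15.4 and 0.348 to 7.08 TPM, with 1 gene tested in each list and 0 called. The part of these differences in the results for the 10 genes was not tested, and fewer cells of a type and less RNA per cell cannot be told apart in bulk samples.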

How the data were processed

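Values were TPM, deposited by the authors in 1 table with a column per library. The submitters' processing notes name HISAT2, StringTie and GRCm38, without versions. Annotation release and filters are not given in the sources used here. Of 60496 rows, 5025 repeat a gene ID, and rows were summed per ID. Groups come from the library titles. Log2(TPM + 1) was fitted with limma 3.58.1 (R 4.3.3) with a variance trend, on the 13470 genes whose mean reached 1 TPM, with two-sided p-values adjusted by Benjamini-Hochberg at 0.05. The step was tested on simulated data. Ratios were compared by exact permutation of log2 ratios taken after adding 1 TPM to each gene, adjusted over 4 ratios. Coordinates come from GENCODE (GRCm38), motifs from the RefSeq promoter table. The members, lists and tests were chosen with earlier results of these data known. All 10 members are named; from each list, the called genes with the lowest adjusted p (at most 4) and 5 stress genes fixed by name were eligible. Adding named pseudogenes was chosen after seeing the data. One B cell marker and 1 related gene row are not reported here.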

Additional observations from a re-analysis of the deposited data

How the results depend on the processing

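The changes of the 10 genes were computed under up to 17 alternatives, and Hspd1 and Hspe1 passed under each. The number of the 10 called, 4, was 2 after median-of-ratios scaling, 2 after quantile normalization and 2 after rescaling to nuclear protein-coding genes, and 2 to 3 without a single library. The number of all genes called, 1549, was 752 with no expression filter, 806 after median-of-ratios scaling, 814 after quantile normalization, 944 after rescaling to nuclear protein-coding genes and 767 with no variance trend. Without a single library it was 611 to 1276, being 870 and 762 without uninduced replicates 1 and 2 and 771, 611 and 920 without induced replicates 1, 2 and 3. With a replicate block 902 genes and 3 of the 10 passed, Atf5 being lost (limma adjusted p 0.0901). Same-numbered libraries did not deviate together (mean correlation 0.0078). The Spg7 change of -0.17 became 0.21 after median-of-ratios scaling, 0.21 after quantile normalization and 0.24 after rescaling to nuclear protein-coding genes, and lay between -0.33 and 0.032 without a single library. That of Yme1l1 lay between -0.58 and -0.17 without a single library and became 0.025 after rescaling to nuclear protein-coding genes. These scalings move the median of all genes from -0.35 to near 0. The log2 ratio difference of Hspe1 to Hspd1, 0.047, lay between -0.097 and 0.21 without a single library. That of Clpx to Clpp, 0.11, lay between -0.031 and 0.36. For Spg7 to Afg3l2 the difference of 0.42 lay between 0.25 and 0.63. For Yme1l1 to Afg3l2 that of 0.20 lay between 0.0049 and 0.43. Counts called lower moved by more than 1.5 times under 11 alternatives for the stress response list (2 to 3 genes), 12 for import and mass (1 to 3), 11 for other proteases (0 to 1), 9 for chaperone partners (0), 4 for mitochondrially encoded mRNAs (0 to 3), and 1 each for cytosolic relatives (3) and translation factors (2). In the stress response list 1 gene was called higher after rescaling to nuclear protein-coding genes, and 0 otherwise. For proliferation 10 to 11 genes were called lower throughout. The cause was not tested beyond the scalings. TPM keeps no depth, so the counting error of low genes such as Atf5 cannot be estimated.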

Other observations

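Trib3, a target of Atf4 and CHOP on the stress response list, chosen after its values were seen, was at 13.1, 10.4 and 6.96 TPM in uninduced and 22.5, 14.8 and 13.97 TPM in induced libraries, so the groups did not overlap, with the induced libraries higher. Its log2 change was 0.70 (limma adjusted p 0.167), and 1.08 after median-of-ratios scaling (limma adjusted p 0.0595). It passed after rescaling to nuclear protein-coding genes (1.11, limma adjusted p 0.0397). Asns, another Atf4 target chosen in the same way, was at 7.75, 7.35 and 5.49 TPM in uninduced and 4.24, 1.83 and 0 TPM in induced libraries (limma adjusted p 0.0837). Fgf21, a hormone secreted under mitochondrial stress, was listed at 0 in all 6 libraries. Gdf15, another such hormone, was below the expression minimum, with a highest value of 2.94 TPM in induced replicate 2.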
